A study of Mus musculus with 10 samples.

Results

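The calpain system of the visual cortex was followed through 4 genes: Capn1 and Capn2, which encode the catalytic subunits of the 2 conventional calpains, Capns1, which encodes their shared small subunit, and Cast, which encodes calpastatin, their inhibitor. They are 4 of the 8251 genes with a probe set of a single symbol on the array. Every probe set annotated to only one of these symbols was taken, which gave 5 of the 12422 non-control probe sets: 1 each for Capn1, Capns1 and Cast, and 2 for Capn2. The family was selected on the measured signal of Capn1, which was lower in deprived than in non-deprived cortex on these same 10 arrays, so its difference is given as a description and nothing is concluded from a test of a member. The tissue was visual cortex, dissected from wild-type mice (C57Bl6) at postnatal day 18. One eye had been removed at postnatal day 14, 4 days earlier. Deprived cortex (5 samples) lies contralateral to the missing eye and so loses its main, crossed visual input. Non-deprived cortex (5 samples) lies ipsilateral to it and still receives crossed input from the other eye. All samples, the non-deprived ones too, came from enucleated animals, so there was no intact control. The labels name 4 mice and describe the samples as pooled, without saying how animals were divided over the 10 arrays, so the spread between arrays may be partly technical.

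Calpains are cysteine proteases of the cytosol that calcium activates. They cut their substrates at few positions and so alter proteins rather than degrade them fully. Calpain-1 and calpain-2 each pair a large catalytic subunit with the small subunit, and calpastatin binds and blocks the calcium-bound enzymes. In neurons, calcium entry at active synapses is a known trigger, and spectrin, the Cdk5 activator p35 and NMDA receptor subunits are among the known substrates.

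The promoter windows of Capn1 and Capn2 are shown because the log2 differences of these closely related proteases lay on opposite sides of 0 in the comparison. Each window holds 300 bases, from 250 bases before to 50 bases after an annotated start, 5′ to 3′ on the gene's strand, in RefSeq's annotation of GRCm38.p6. All 4 genes matched this table, with 2 windows for Capn1, 1 each for Capn2 and Capns1, and 4 for Cast. Capitals mark the letters TGANTCA, the AP-1 motif.
Capn1, chr19:6015776-6016075, minus strand: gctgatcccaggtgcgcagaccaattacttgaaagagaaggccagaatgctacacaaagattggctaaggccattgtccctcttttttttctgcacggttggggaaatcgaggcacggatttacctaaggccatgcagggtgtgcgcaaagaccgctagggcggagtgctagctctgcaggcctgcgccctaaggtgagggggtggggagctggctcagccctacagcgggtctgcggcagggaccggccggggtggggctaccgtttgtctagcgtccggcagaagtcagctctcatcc
Capn1, chr19:6015198-6015497, minus strand: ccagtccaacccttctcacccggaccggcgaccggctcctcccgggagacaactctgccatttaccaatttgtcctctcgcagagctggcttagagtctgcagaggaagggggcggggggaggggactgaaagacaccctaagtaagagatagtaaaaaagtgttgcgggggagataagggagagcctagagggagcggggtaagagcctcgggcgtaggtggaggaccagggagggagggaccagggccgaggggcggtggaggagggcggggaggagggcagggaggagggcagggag
Capn2, chr1:182517561-182517860, minus strand: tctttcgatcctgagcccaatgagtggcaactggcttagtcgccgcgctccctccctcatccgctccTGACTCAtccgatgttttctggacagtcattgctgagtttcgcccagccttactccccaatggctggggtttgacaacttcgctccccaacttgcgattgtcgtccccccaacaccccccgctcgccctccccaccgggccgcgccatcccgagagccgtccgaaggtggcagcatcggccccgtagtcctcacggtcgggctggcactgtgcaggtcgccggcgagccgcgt

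The windows were searched on both strands for 4 motifs of activity-linked factors: TGANTCA (AP-1), TGACGTCA (the cAMP response element), GCGNGGGCG (EGR) and the CArG box of serum response factor. The Capn2 window held 1 match, TGACTCA, starting 183 bases before the annotated start. Neither Capn1 window, nor the windows of Capns1 and Cast, held any of the 4, so no matches overlapped. Among all 32851 promoter windows of this length, 7.81% held the AP-1 letters, 1.79% the cAMP response element, 5.55% the EGR letters and 1.63% a CArG box. A match is a description of letters and not a site of binding. The Capn1 windows had 59.3% and 63.7% G and C bases, and the Capn2 window 64.3%, against a median of 52.7% over all windows.

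Capn1, the catalytic subunit of calpain-1, had a signal in deprived cortex of 50.2% of that in non-deprived cortex. On its single probe set (100932_at) the signals of the deprived replicates 1 to 5 were 346.6, 123.8, 143.5, 243.6 and 228.6, and those of the non-deprived replicates 1 to 5 were 527.7, 286.8, 434.3, 521.2 and 394.3, in arbitrary units of the array software. Of the deprived arrays, 4 of 5 lay below every non-deprived array, and the groups overlapped through deprived replicate 1, which lay above non-deprived replicate 2. The mean was 217 ± 89.1 in deprived and 433 ± 99.5 in non-deprived cortex (SD, n = 5 each). The log2 difference, deprived minus non-deprived on the scale log2(signal + 16), was -0.998 ± 0.25 (SE), with a 95% interval from -1.53 to -0.47. In these tissue samples, fewer cells with Capn1 RNA and less Capn1 RNA per cell cannot be told apart.

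The deprived arrays did not form a tight group for Capn1. Their highest signal was 2.80 times the lowest, with the low values on replicates 2 and 3, whereas the highest non-deprived signal was 1.84 times the lowest. The coefficient of variation was 41.0% in deprived and 23.0% in non-deprived cortex. Within groups, the SD of the log2 values was 0.46, and 94.9% of the 7453 tested probe sets had a smaller one. Of the tested probe sets, 1 had a log2 difference below that of Capn1, a rank that the choice of the family fixes in part. Leaving out 1 array at a time moved the log2 difference of Capn1 between -1.18 (without deprived replicate 1) and -0.84 (without deprived replicate 2).

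**Figure D1:**
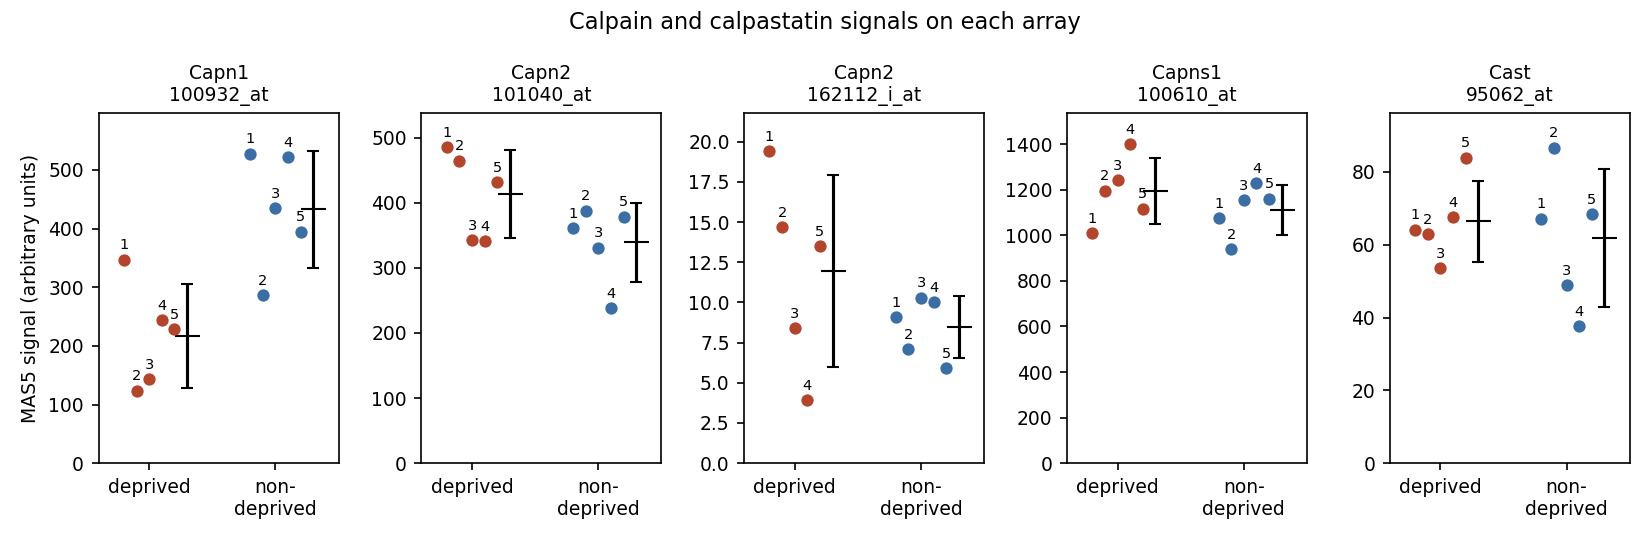
MAS5 signal (arbitrary units, linear axis from 0, its own scale in each panel) of the 5 probe sets on the 5 deprived (left, red) and 5 non-deprived arrays (right, blue), with the replicate number above each point and bars for mean ± SD. For Capn1, 4 of 5 deprived arrays sit below all non-deprived arrays, and the groups overlap in every panel.

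Capn2, the catalytic subunit of calpain-2, did not have the lower signal seen for Capn1. On its brighter probe set (101040_at) the deprived replicates 1 to 5 had signals of 485.6, 464.7, 342.6, 340.8 and 431.2, and the non-deprived replicates 1 to 5 had 361, 388, 331.1, 238 and 378.8. The deprived replicates 1, 2 and 5 lay above all non-deprived arrays, and the deprived replicates 3 and 4 lay within their range. The mean was 413 ± 67.9 in deprived and 339 ± 60.7 in non-deprived cortex (SD, n = 5 each), and the log2 difference was 0.28 ± 0.15 (SE; 95% interval from -0.05 to 0.60). Without non-deprived replicate 4, the lowest of the 10 arrays, it was 0.16.

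The other Capn2 probe set (162112_i_at), an incomplete one by its suffix, was too dim to carry the comparison. Its signals were 19.4, 14.7, 8.4, 3.9 and 13.5 on the deprived replicates 1 to 5 and 9.1, 7.1, 10.3, 10 and 5.9 on the non-deprived replicates 1 to 5. On 9 of the 10 arrays it lay under 16, the value added before taking logarithms, and it was below the signal filter. Its log2 difference of 0.17 ± 0.17 (SE) had the sign of the brighter probe set, with overlapping groups.

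Capns1, the small subunit that both proteases need for stability, differed little. Its probe set (100610_at) gave 1009.7, 1196.3, 1242.2, 1399.8 and 1116.6 on the deprived replicates 1 to 5, and 1076.1, 939, 1153.7, 1228.2 and 1160.1 on the non-deprived replicates 1 to 5. The groups overlapped over most of their range, with the deprived replicates 3 and 4 above all non-deprived arrays. The mean was 1193 ± 145 in deprived and 1111 ± 110 in non-deprived cortex (SD, n = 5 each). The log2 difference was 0.10 ± 0.10 (SE; 95% interval from -0.11 to 0.31). It was 0.04 without deprived replicate 4 and 0.04 without non-deprived replicate 2.

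Cast, the inhibitor, was read by 1 dim probe set (95062_at) below the signal filter. Its signals were 64.1, 62.9, 53.5, 67.5 and 83.9 on the deprived replicates 1 to 5, and 67.1, 86.6, 48.9, 37.6 and 68.4 on the non-deprived replicates 1 to 5. The deprived arrays lay wholly within the range of the non-deprived ones. The mean was 66.4 ± 11.1 in deprived and 61.7 ± 19.0 in non-deprived cortex (SD, n = 5 each), and the log2 difference was 0.11 ± 0.21 (SE; 95% interval from -0.34 to 0.56). It was -0.02 without non-deprived replicate 4 and -0.05 as a difference of group medians, so its sign was not fixed. No detection calls were used here, so this low signal was not set against background.

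Of the 5 probe sets, 3 passed the filter, which left out probe sets with a mean log2 value below the 40th percentile (a signal of 115). Over all 7453 tested probe sets, limma called 0, or 0%, at an adjusted p of 0.05 with Benjamini-Hochberg adjustment. The smallest adjusted p in limma was 0.0503, just above that threshold. Of the tested probe sets, 357, or 4.79%, had an unadjusted p under 0.05. The groups did not overlap for 0 of the 3 tested members, against 71 of 7453, or 0.953%, of all tested probe sets. Since the family was chosen in this contrast, nothing is read from these counts.

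No other member had values that closely followed those of Capn1 over these 10 arrays. Over the 10 arrays, Pearson's r with Capn1 on the log2 scale was -0.46 for the brighter and -0.12 for the dim Capn2 probe set, -0.26 for Capns1 and -0.27 for Cast. After group means were subtracted, it was -0.12 and 0.27 for the Capn2 probe sets, -0.01 for Capns1 and -0.18 for Cast. These values are descriptions over arrays that share 1 scaling, with no test. Cast and the dim Capn2 probe set lay below the signal filter, which limits what their r can show.

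By its estimate, no other measured calpain had a difference of the size of Capn1's, on whose low signal the family was selected. Of 12 other family genes looked for, 6 were on the array, 5 of them with a tested probe set. In the test, 0 of the 5 passed in either direction, as did 0 of all 7453 tested probe sets. The 5 genes had a median log2 difference of 0.08, against 0.0066 over all tested probe sets. Capn5, a calpain without the penta-EF-hand domain, had a mean signal of 960 ± 140 in deprived and 917 ± 55.9 in non-deprived cortex (SD, n = 5 each). Capn7, another calpain without that domain, had 511 ± 45.0 and 504 ± 88.0, with a log2 difference of 0.03 ± 0.11 (SE).

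Capn10, linked to type-2 diabetes in human studies, had log2 differences of 0.10 ± 0.12 (SE) on its tested probe set and 0.06 ± 0.21 on a dim one. Capn3, best known from skeletal muscle, had 0.08 ± 0.13 on its tested probe set (103272_at), and -0.10 ± 0.20 and -0.09 ± 0.18 on 2 dim ones. Capn6, which lacks the catalytic cysteine, had 0.23 ± 0.16 on its tested probe set (97943_at), against -0.45 ± 0.24 and 0.18 ± 0.17 on 2 dim ones, so its probe sets disagreed in sign. Capn9, a calpain of the digestive tract, was below the filter, with mean signals of 108 in deprived and 110 in non-deprived cortex and a log2 difference of 0.0056 ± 0.19 (SE). The signs of the small differences of Capn3, Capn5, Capn7, Capn9 and Capn10 turned under at least 1 alternative.

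**Figure D2:**
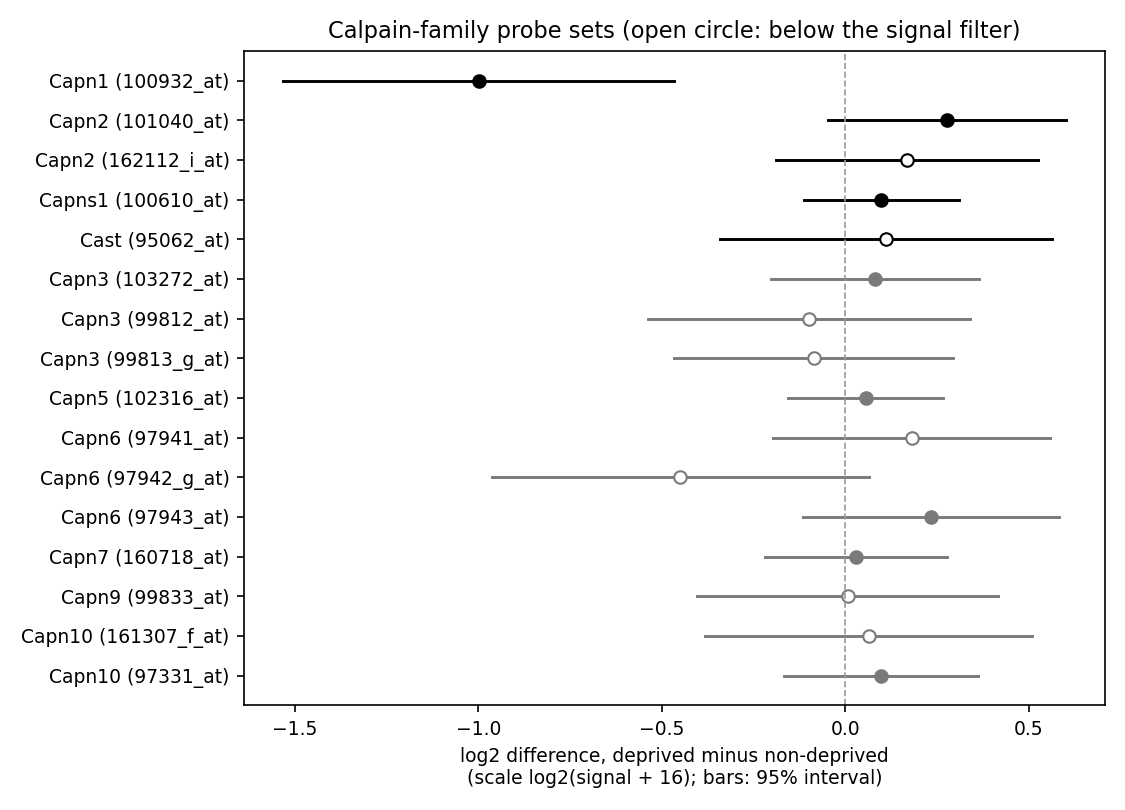
Log2 difference (deprived minus non-deprived, on the scale log2(signal + 16)) of each calpain-family probe set, with its 95% interval as a bar. The 4 chosen genes are in black above, the other calpains in grey, and open circles mark probe sets below the signal filter. Capn1, on whose low signal the family was selected, lies at -0.998, and the other probe sets lie between -0.45 and 0.28.

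The small subunit has relatives with the same penta-EF-hand calcium-binding fold. Sorcin (Sri), a regulator of calcium release, had a log2 difference of -0.21 ± 0.14 (SE), peflin (Pef1) one of -0.15 ± 0.10, and Pdcd6, the ALG-2 adaptor of membrane repair, one of -0.04 ± 0.08. All 3 estimates lay below 0, where 3578 of all 7453 tested probe sets lay too. The median of the 3 was -0.15, against 0.0066 over all tested probe sets. In the test, 0 of the 3 passed, as did 0 of all 7453. With only 3 genes, nothing is read from the shared sign.

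Transcripts of known neuronal calpain substrates lay on both sides of 0, as did all tested probe sets (3875 above and 3578 below 0). None passed, but 0 of all 7453 tested probe sets did, so this is not particular to the substrates. Among cytoskeletal substrates, 21 of 24 genes were measured and 18 tested, with 10 estimates above and 8 below 0 and a median log2 difference of 0.0061. The members with the smallest p were the neuronal tubulin Tubb3 (-0.25 ± 0.09 SE, on a family-type probe set), the neurofilament subunit Nefm (-0.23 ± 0.10) and Ank3, the ankyrin of the axon initial segment (0.21 ± 0.10). Each had an adjusted p of 0.992 in limma.

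Among substrates at synapses and among channels, 16 of 22 genes were measured and 15 tested, with 5 estimates above and 10 below 0 and a median log2 difference of -0.07. The sodium-calcium exchanger Slc8a1 had a log2 difference of -0.19 ± 0.10 (SE), and the kinase subunits Camk2a and Camk2b had -0.29 ± 0.18 and -0.10 ± 0.08. Among kinases, phosphatases and proteins of cell death, 15 of 21 genes were measured and all 15 tested, with 10 estimates above and 5 below 0 and a median of 0.05. The GTPase gene Rhoa had a log2 difference of -0.29 ± 0.12 (SE), the phosphatase gene Ptpn13 one of 0.27 ± 0.12 and Aifm1, a mitochondrial protein of cell death, one of 0.16 ± 0.10. In both lists, 0 members passed in either direction, as did 0 of all 7453 tested probe sets. The smallest adjusted p in both lists was 0.992 in limma.

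**Figure D3:**
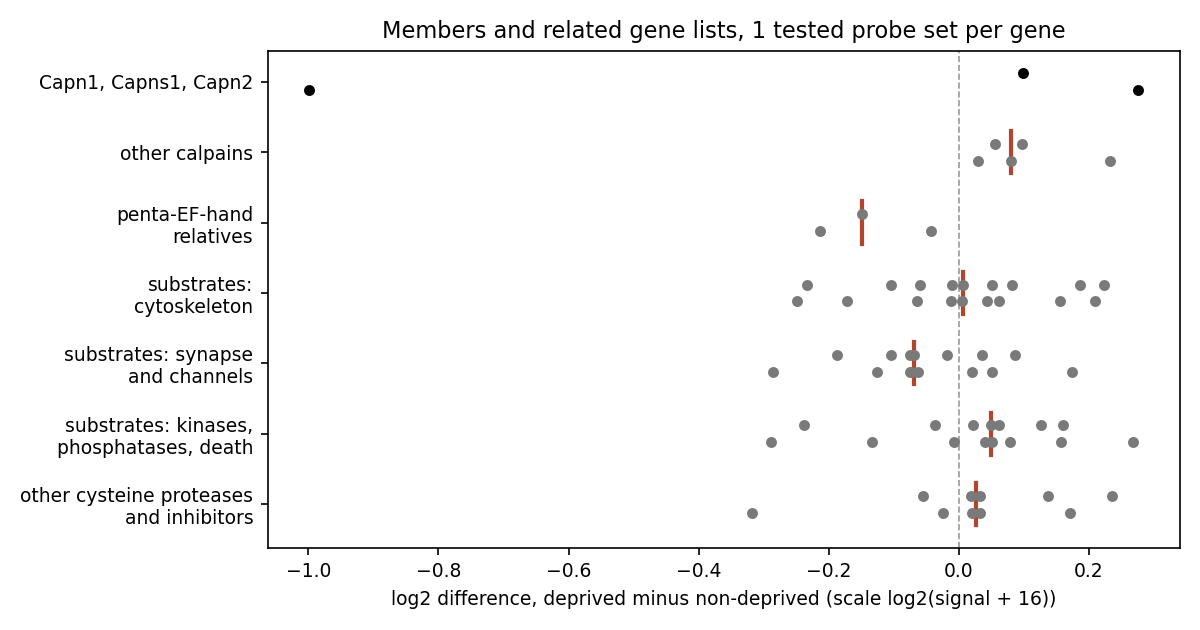
Log2 difference (deprived minus non-deprived, on the scale log2(signal + 16)) of the 3 tested members (black, top row) and of each tested gene of 6 related lists (grey, the brightest probe set per gene); red bars mark list medians, and the vertical offset of points only separates them. Capn1, on whose low signal the family was selected, lies at -0.998, whereas the lowest gene of any list, Ctsh, lies at -0.32.

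The genes whose values followed Capn1 most closely over the 10 arrays were Dap3, Ifrd1, Acss1, Acot7 and Actn1. They were ranked by Pearson's r of log2 values among tested probe sets with 1 symbol, and the arrays share 1 scaling. Dap3, a protein of the mitochondrial ribosome, had r = 0.89 (0.87 after group means were subtracted), and Ifrd1, an early-response transcriptional regulator, r = 0.88 (0.71). The mitochondrial acetyl-CoA synthetase Acss1 had r = 0.87 (0.77), the acyl-CoA thioesterase Acot7 r = 0.87 (0.81) and the actin cross-linker Actn1 r = 0.86 (0.79). These are the highest values among the probe sets ranked, with each gene taken once, and carry no test.

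The size of the difference in these 5 genes was smaller than in Capn1. Ifrd1 had a mean signal of 381 ± 87.3 in deprived and 564 ± 54.8 in non-deprived cortex (SD, n = 5 each; log2 -0.57 ± 0.15 SE). Actn1 had a log2 difference of -0.33 ± 0.16 (SE) on this probe set (92280_at), but 0.05 ± 0.10 and 0.12 ± 0.18 on 2 others, of the family and relaxed-rule types. Dap3, Acss1 and Acot7 had log2 differences of -0.14 ± 0.09, -0.16 ± 0.09 and -0.12 ± 0.07 (SE). Within the deprived group, replicate 1 was the highest array for Capn1 and for each of these genes other than Acot7, which was highest on replicate 5.

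**Figure D4:**
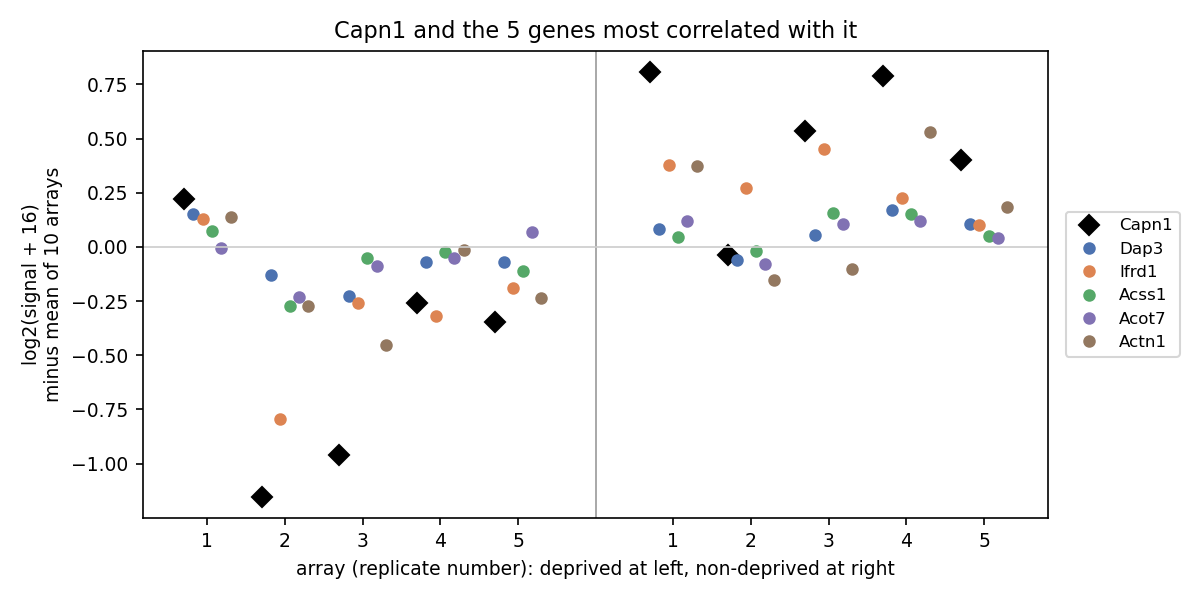
Log2(signal + 16) minus the mean of the 10 arrays for Capn1 (black diamonds) and the 5 genes most correlated with it (coloured circles), on the deprived (left) and non-deprived arrays (right) by replicate number. Capn1 runs from -1.15 on deprived replicate 2 to 0.81 on non-deprived replicate 1, a wider span than any of the 5.

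Depth in the sense of reads does not apply, and precision is limited by how many arrays there are. Median signals lay between 191 and 209, and arrays of 1 group correlated at 0.957 to 0.979 (Pearson, across tested probe sets, which are not independent). Neuronal markers were bright in both groups, and all 8 measured of 10 passed the filter, with summed signals of 40715 to 44180 in deprived and 42115 to 44909 in non-deprived arrays. Of the 7 marker lists, the choroid plexus and meningeal one (7 of 7 genes measured, Ttr and Folr1 below the filter) differed most by p, at 9187 to 16515 in deprived and 8873 to 12283 in non-deprived arrays (exact two-sided permutation p = 0.111). Summed signals of astrocyte, oligodendrocyte, microglial, vascular and blood markers overlapped between groups. The ratio of 3' to 5' beta-actin signal, a sign of RNA degradation, averaged 1.58 ± 0.121 on the deprived arrays and 1.58 ± 0.181 on the non-deprived ones (SD, n = 5 each; exact permutation p = 0.96). Over 9 such measures the smallest Benjamini-Hochberg adjusted exact p was 0.667, where 5 against 5 arrays could give at best 0.00794 before adjustment. The part of these measures in the Capn1 difference was not tested. The labels give no scan date or other batch.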

How the data were processed

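RNA from 10 samples of mouse visual cortex was hybridised to 1-colour Affymetrix arrays of 12488 probe sets, 1 per sample; about 10 µg of total RNA was labelled, per the labels' protocols. The deposited values are linear MAS5 signal intensities, per the submitters' processing notes; neither the software version nor the scaling target is stated in these sources. The mean of each array, with the lowest and highest 2% of probe sets left out, was 500 after rounding, so arrays had been scaled before deposit and all differences are relative to the array average. The table was used as deposited, as log2(intensity + 16); 10.2% of all values lay under 16.

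Controls (66 probe sets) were removed. Of the other 12422, the platform annotation gave 10833 a single symbol, 396 several and 1193 none. For 10817 of those with a single symbol, the Entrez ID was matched in RefSeq and the symbol given there was used. Groups and replicate numbers came from sample titles. Differences, SEs and 95% intervals came from limma 3.58.1 (R 4.3.3; eBayes with an intensity trend) over all 12422 probe sets, and adjusted p-values from the same model over the 7453 that passed the filter at the 40th percentile, without covariates. The script was tested on simulated data. Array measures were compared by exact permutation over 252 assignments. Python 3.11.15 was used for the tables.

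The 4 genes and all lists were chosen with earlier results of these data known. Named are all member and calpain-family probe sets, from each related list the 3 genes with the smallest p, and the 5 genes most correlated with Capn1. Members of related lists without a probe set were not analysed here. Alternatives were pseudocounts of 1 and 64, quantile normalization, median scaling, the replicate number as a block, single arrays left out, other filters, no trend and group medians.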

Additional observations from a re-analysis of the deposited data

How the results depend on the processing

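The log2 differences of the 5 member probe sets moved by less than the SD between arrays under each of 16 alternatives. Capn1 stayed below 0 throughout, between -1.18 and -0.84, and the brighter Capn2 probe set above 0, between 0.16 and 0.34. Capns1 lay between 0.04 and 0.16, the dim Capn2 probe set between 0.06 and 0.32, and Cast between -0.05 and 0.22. The 31 other named probe sets also moved by less than the SD between arrays, and 25 of them kept their sign under every alternative. The number of probe sets called by limma over the whole array was 0 as reported. It was 2 (Junb and Dusp6) with a pseudocount of 64, 6 with the replicate block (Fos, Junb, Dusp1, Dusp6, Nr4a1 and Capn1; the family was selected on Capn1 in this contrast, so nothing is read from its place there) and 2 (Junb and Dusp6) when the filter was raised to the 60th percentile, all lower in deprived cortex. Leaving out 1 array at a time gave 0 to 5: 5 without non-deprived replicate 1 (Junb, Dusp6, Nr4a1, Btg2 and Fos), 1 without deprived replicate 4 (Junb) and 0 without any other; the cause was not tested. The count stayed at 0 with a pseudocount of 1, quantile normalization, median scaling, no filter and no trend. The smallest adjusted exact p over the 9 array measures lay between 0.143 and 0.893 with single arrays left out or median scaling. With the replicate block the Capn1 difference stayed at -0.998, while its SE was 0.15 against 0.25 without the block. Whether numbers pair the arrays is not stated in the labels. Deviations from group means correlated between same-numbered arrays at 0.14, 0.182, 0.222 and 0.227 for replicates 1 to 4, above every pair of different numbers (highest 0.0883). For replicate 5 the correlation was 0.0222, under the 0.1 asked of every pair, and deprived replicate 5 correlated best with non-deprived replicate 4 (0.0311). The block is therefore an alternative only, and the correlations of replicates 1 to 4 are a hint of pairing from the data. Capn1 was lower on the deprived array in 5 of 5 same-numbered pairs. The choice of the family on Capn1 fixes this count in large part, so nothing is read from it. The second Capn2 probe set, under a signal of 16 on 9 of 10 arrays, and Cast, below the signal filter of 115, limit what can be said of them.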

Other observations

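Other cysteine proteases and their inhibitors, the lysosomal cathepsins and cystatins among them, lay on both sides of 0. Of 15 genes, 14 were measured and 10 tested, with 3 estimates below 0, 7 above and a median log2 difference of 0.03. In the test, 0 passed in either direction, as did 0 of all 7453 tested probe sets. Cathepsin H (Ctsh), a lysosomal aminopeptidase, had a mean signal of 160 ± 21.1 in deprived and 206 ± 46.9 in non-deprived cortex (SD, n = 5 each; log2 -0.32 ± 0.17 SE). Cathepsin K (Ctsk), a collagen-degrading protease, had 302 ± 39.7 in deprived and 254 ± 29.0 in non-deprived cortex (SD, n = 5 each; log2 0.23 ± 0.13 SE). The inhibitor cystatin B (Cstb) had a log2 difference of 0.17 ± 0.12 (SE).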
